A study of Mus musculus with 2 samples.

Results

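The genes described here are the mouse chemokine ligands Ccl2, Ccl7, Ccl8 and Ccl12 and the receptor Ccr2, 5 of the 34400 genes in the expression tables, taken by gene name from both tables. All 5 were present in each table with 1 row each. CCR2 is a G protein-coupled receptor carried by inflammatory monocytes, which need it to leave the bone marrow and to enter inflamed tissue and tumours. The 4 ligands, also called monocyte chemoattractant proteins, are small secreted proteins encoded in 1 gene cluster. CCL2 is the best studied of them and CCL7 is a further CCR2 agonist, while mouse CCL12 has no simple human counterpart and mouse CCL8 has also been described as a ligand of CCR8. In tumours such ligands are known to be made by macrophages, fibroblasts and some malignant cells.

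The data were UMI counts (unique molecular identifiers, 1 per captured RNA molecule) from single cells of tumours grown from CT26, an established mouse colon carcinoma line. Mice with tumours of 50 to 100 mm³ received control IgG or SLC7A11-Ab, an antibody against the cystine transporter subunit SLC7A11, at 10 mg/kg every 2 days. Each group had 1 library, so no test across samples exists and no p-value is given. Intervals below are exact 95% intervals that cover counting error only, and a difference between the libraries cannot be told apart from a difference between 2 tumours given the same treatment. The strain, sex and age of the mice, and whether tumours were pooled, are not given in the sources used here. The submitters' text names both the caecum and subcutaneous growth as the tumour site.

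After filtering, 12326 control and 10897 antibody cells were kept, with 39 barcodes found in both libraries. Cells were placed in classes by marker UMIs, and no member was used as a marker. The macrophage class (801 control and 897 antibody cells) required complement C1q transcripts, and the monocyte class (94 and 450 cells) required Lyz2 with Ly6c2, Plac8, Chil3 or Ms4a4c and almost no C1q. The fibroblast class (72 and 104 cells) required collagen transcripts and decorin (Dcn). Keratin and other epithelial markers summed to only 44.7 and 33.4 CPM (counts per 1000000 UMIs of the class) in the class called tumour, so this class was defined by low Dcn, no Y-linked or Ptprc UMI and few UMIs of other host and leukocyte markers (3484 and 1784 cells). The decorin-high class (3910 and 2656 cells) had at least 10 Dcn UMIs and otherwise the same exclusions. In these classes, when cells with Y-linked transcripts were let in, those transcripts reached 1.09 and 2.24 CPM (tumour) and 0.65 and 1.83 CPM (decorin-high), against 82.5 and 83.8 CPM in fibroblasts. The samples are labelled as goblet cells, but 7 goblet markers, among them Muc2 and Tff3, summed to 2.09 and 1.20 CPM in the tumour class. The limits allowed up to 4 C1q and 9 Lyz2 UMIs, and the tumour class held 31.5 and 87.1 CPM of C1q and 39.0 and 94.6 CPM of Lyz2, against 20240 and 19873 CPM of C1q in macrophages. In no class were 3559 control and 3770 antibody cells. Median depth was higher in the antibody library in all 5 classes, for example 6052 against 3692 UMIs in macrophages, so levels are given as CPM and shares of cells after thinning each cell to 2000 UMIs. Thinning left out shallower cells, 147 control and 98 antibody macrophages, 40 and 62 monocytes and 112 and 272 T cells.

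By the GENCODE vM21 annotation of GRCm38, the 4 ligand genes lie on the forward strand of chromosome 11, each with 3 exons. Ccl2 (ENSMUSG00000035385) is at chr11:82035571-82037453 and Ccl7 (ENSMUSG00000035373) at chr11:82045712-82047525. Ccl12 (ENSMUSG00000035352) is at chr11:82101845-82103400, followed by Ccl8 (ENSMUSG00000009185) at chr11:82115185-82116799. Ccr2 (ENSMUSG00000049103) is on chromosome 9, at chr9:124101950-124113557, also on the forward strand, with up to 4 exons. No 31-base word was shared between transcripts of any pair of the 5 genes. Ccl2 overlaps the gene Gm17268 on the opposite strand, and no other member overlaps an annotated gene.

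Ccl8 and Ccl12 are neighbours whose macrophage levels differed between the libraries in opposite directions (below), so the 250 bases before each start site are shown for comparison. The sequences are from RefSeq (GRCm38.p6), read 5′ to 3′ on the forward strand, at chr11:82114935-82115184 for Ccl8 and chr11:82101595-82101844 for Ccl12. RefSeq promoter entries were matched for 3 of the 5 members, these and Ccr2. Capitals mark matches to 3 motifs searched on both strands, namely TATAAA, the interferon regulatory factor core AANNGAAA and the kappaB-like pattern GGNNNTTCC.
Ccl8: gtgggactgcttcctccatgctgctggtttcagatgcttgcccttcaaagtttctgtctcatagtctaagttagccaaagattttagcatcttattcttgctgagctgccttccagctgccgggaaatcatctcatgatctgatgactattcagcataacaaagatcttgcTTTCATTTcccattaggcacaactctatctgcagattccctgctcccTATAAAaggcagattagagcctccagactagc
Ccl12: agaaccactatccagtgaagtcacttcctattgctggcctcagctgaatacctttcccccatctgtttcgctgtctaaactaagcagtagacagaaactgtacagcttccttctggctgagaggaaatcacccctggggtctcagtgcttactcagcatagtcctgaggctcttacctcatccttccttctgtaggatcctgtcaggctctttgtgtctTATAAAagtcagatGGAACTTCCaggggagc
Each window holds a TATAAA, starting 32 bases before the start site in Ccl8 and 31 bases before it in Ccl12. Of 32851 RefSeq promoters cut to the same 250 bases, 12.4% hold this motif. The Ccl8 window has in addition the interferon regulatory factor core, on the reverse strand (TTTCATTT, found in 21.3% of promoters), and the Ccl12 window the kappaB-like pattern (GGAACTTCC, found in 15.7%), starting 17 bases before the start site. These matches are descriptions of the letters only.

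Macrophages held most of the UMIs of Ccl7, Ccl8 and Ccl12 in both libraries, and decorin-high cells held the largest part of Ccl2. In the control library, macrophages were 6.50% of the cells and held 89.7% of all Ccl12 UMIs, 77.5% of Ccl7, 67.6% of Ccl8 and 35.8% of Ccl2. Decorin-high cells, 31.7% of the cells, held 42.5% of the Ccl2 UMIs. In the antibody library macrophages held 80.1% of Ccl12, 73.0% of Ccl8, 56.8% of Ccl7 and 18.3% of Ccl2, and decorin-high cells held 46.1% of Ccl2. Cells in no class held 11.9% and 25.1% of the Ccl2 UMIs.

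**Figure D1:**
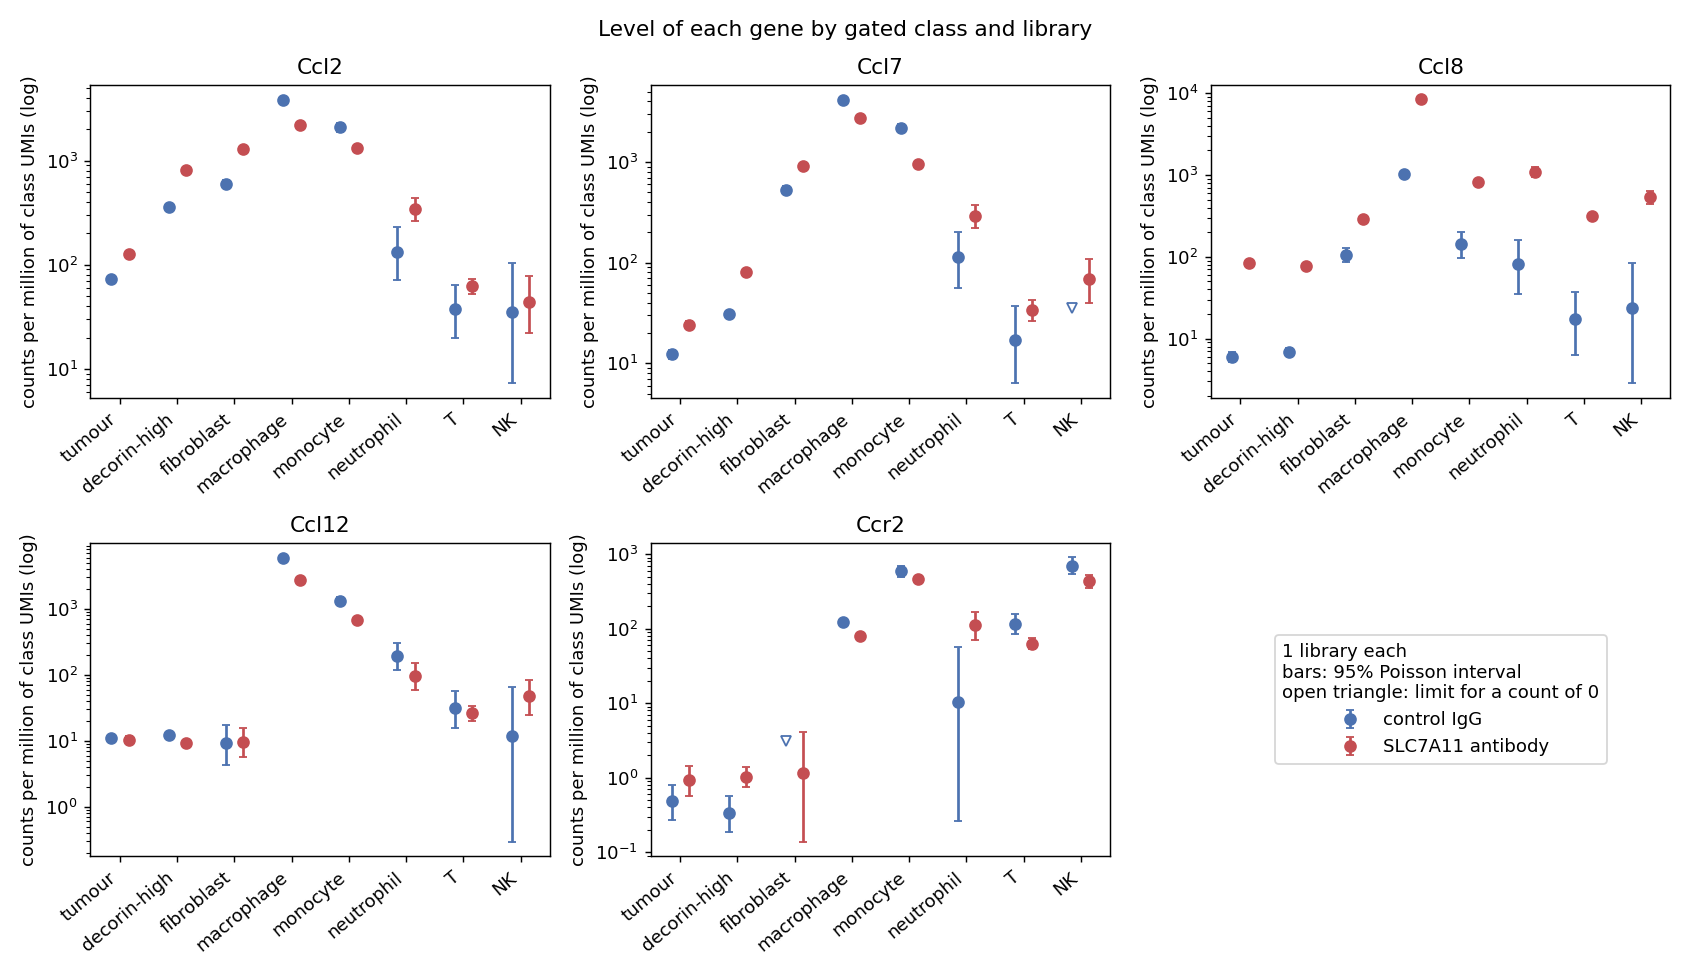
Level of each gene (CPM, log scale) in 8 classes of the control IgG and SLC7A11 antibody libraries, with exact 95% Poisson intervals; an open triangle is the limit that a count of 0 allows. Macrophages had the highest level of each ligand among these classes, Ccl8 reached 8361 CPM in macrophages of the antibody library, and Ccr2 was highest in monocytes and NK cells.

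Ccl2, the prototype ligand of CCR2, was at 3815 CPM (95% interval 3749 to 3883) in control macrophages and 2210 CPM (2172 to 2248) in antibody macrophages. In control monocytes it was at 2080 CPM (1896 to 2278) and in antibody monocytes at 1321 CPM (1264 to 1379). Both myeloid classes were thus lower in the antibody library. Fibroblasts had 593 CPM (546 to 644) in the control library and 1280 CPM (1227 to 1334) in the antibody library. Decorin-high cells had 361 CPM (355 to 367) and 808 CPM (799 to 817), and tumour cells 73.0 CPM (70.0 to 76.0) and 126 CPM (122 to 131). These 3 classes, gated without Ptprc, were higher in the antibody library, the reverse of the myeloid classes. The order macrophage, monocyte, fibroblast, decorin-high, tumour was the same in both libraries, but the intervals of monocytes and fibroblasts did not overlap in the control library and did in the antibody library.

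As log2 ratios of antibody over control, Ccl2 was 1.16 (1.13 to 1.19) in decorin-high cells, 1.11 (0.98 to 1.24) in fibroblasts and 0.79 (0.71 to 0.87) in tumour cells. It was -0.79 (-0.82 to -0.75) in macrophages and -0.66 (-0.80 to -0.51) in monocytes. The macrophage level therefore stood 10.6-fold above that of decorin-high cells in the control library and 2.73-fold above it in the antibody library. Scaling by median of ratios instead of class totals adds 0.18 to 0.27 to the log2 ratios, depending on the class, and changed none of these directions. The fibroblast ratio was 0.53 when the marker minimums were doubled, which left 49 control cells, and 1.52 without doublet removal. Per cell, tumour cells held 0.65 and 1.60 Ccl2 UMIs and T cells, which are not known as a source, 0.075 and 0.186, at median depths of 8353, 11947, 1546 and 2459 UMIs.

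The share of cells with a Ccl2 UMI, at 2000 UMIs per cell, was 23.9% (22.6% to 25.3%) of control and 37.4% (35.6% to 39.3%) of antibody decorin-high cells. Tumour cells gave 10.3% (9.31% to 11.4%) and 16.1% (14.4% to 17.9%), and T cells 4.92% (1.03% to 13.7%) and 9.89% (7.31% to 13.01%). The tumour cell share thus lay within the T cell interval in the control library and above it in the antibody library. Without thinning, 43.9% and 63.7% of decorin-high and 23.7% and 42.4% of tumour cells had a Ccl2 UMI. In fibroblasts the shares were 43.1% (31.4% to 55.3%) and 61.5% (51.5% to 70.9%). Ccl2 was concentrated in few decorin-high cells: the top 10% of them held 81.3% of its thinned UMIs in the control library and 70.3% in the antibody library. The most in 1 thinned cell was 68 and 149 UMIs. In macrophages, where 83.3% and 75.7% of cells had a Ccl2 UMI, the top 10% held 36.2% and 38.7%.

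Decorin-high cells differed from tumour cells in Ccl2 by 4.95-fold in the control library and 6.39-fold in the antibody library, and in Ccl7 by 2.50-fold and 3.37-fold. Ccl8 and Ccl12 levels in the same comparison were within 1.16-fold in both libraries. Decorin is a small proteoglycan of the extracellular matrix. Across tumour and decorin-high cells and the cells between them, Ccl2 was higher at each step of decorin level in both libraries. Cells with 0 Dcn UMIs after thinning had 89.5 CPM (81.9 to 97.6) in the control library and 177 CPM (164 to 191) in the antibody library. Cells with 10 or more had 906 CPM (869 to 945) and 1958 CPM (1889 to 2029). The median depth moved with this, from 10708 to 4288 UMIs in the control and from 15475 to 6229 UMIs in the antibody library. Among cells with at least 5000 and under 10000 UMIs, Ccl2 went from 83.8 to 1443 CPM in the control and from 154 to 2114 CPM in the antibody library, so the gradient was at least as large within this range of depth.

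**Figure D2:**
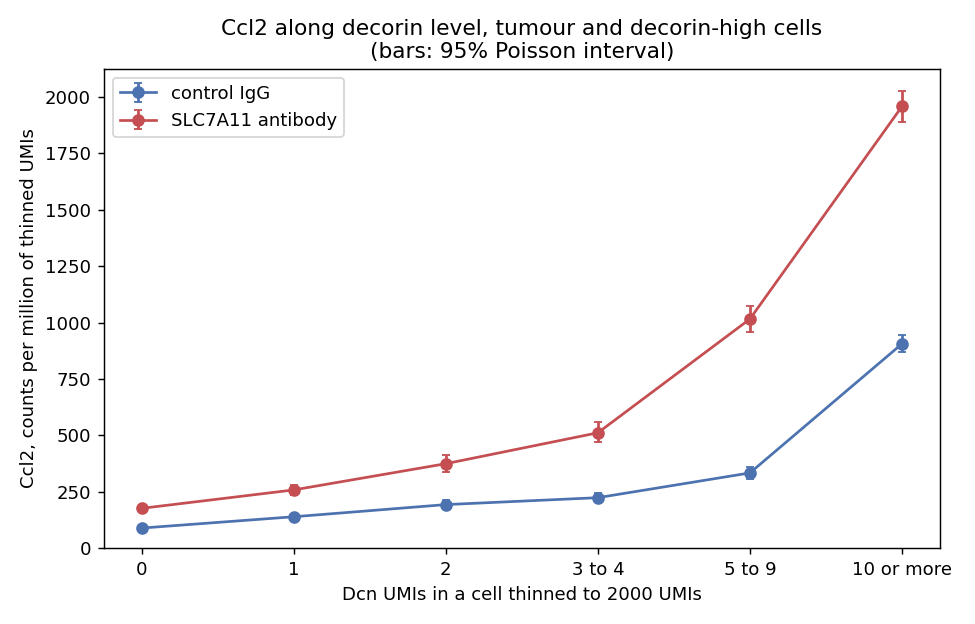
Ccl2 (CPM of thinned UMIs) against the Dcn UMIs of the cell after thinning to 2000 UMIs, in tumour and decorin-high cells and cells between the 2 classes; bars are 95% Poisson intervals and each line is 1 library. Ccl2 is higher at each step, and the antibody library lies above the control at every step.

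Ccl7, the ligand nearest to Ccl2 in the cluster, was at 4140 CPM (4071 to 4210) in control and 2729 CPM (2687 to 2771) in antibody macrophages. Monocytes had 2179 CPM (1990 to 2381) and 951 CPM (903 to 1001). Fibroblasts had 526 CPM (481 to 574) and 912 CPM (95% limits 867.6 and 957.8), close to their own Ccl2 level in the control library. Decorin-high cells, with 30.8 CPM (29.1 to 32.5) and 81.5 CPM (78.7 to 84.3), had far less Ccl7 than Ccl2. The fibroblast level of Ccl7 was 17.1-fold that of decorin-high cells in the control library and 11.2-fold in the antibody library, whereas for Ccl2 the 2 classes differed by 1.64-fold and 1.58-fold. Tumour cells had 12.3 CPM and 24.1 CPM of Ccl7, and T cells 17.2 CPM and 33.5 CPM. After thinning, 2.47% and 5.27% of tumour cells had a Ccl7 UMI, against 1.64% (0.0415% to 8.80%) and 4.40% (2.71% to 6.71%) of T cells, so the tumour shares lay within the T cell intervals. Per cell, however, tumour cells held 0.110 (0.0989 to 0.121) and 0.305 (0.280 to 0.332) Ccl7 UMIs, above the 0.0347 (0.0127 to 0.0755) and 0.100 (0.0787 to 0.126) of T cells, and single tumour cells held up to 25 and 43 UMIs against 1 and 6 in T cells. Whether the tumour class holds Ccl7 above background is not settled by these values. The log2 ratio of Ccl7 was -0.60 (-0.63 to -0.57) in macrophages, -1.20 (-1.35 to -1.05) in monocytes, 0.79 (0.65 to 0.94) in fibroblasts and 1.40 (1.31 to 1.50) in decorin-high cells. Its directions were those of Ccl2 in these 4 classes.

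Within decorin-high cells, Ccl7 was found mainly in cells that also held Ccl2. Of the 202 control cells with a Ccl7 UMI after thinning, 119 (58.9%) also had Ccl2, and 206 of 279 (73.8%) did in the antibody library. Read the other way, 12.7% and 20.7% of Ccl2-positive cells had Ccl7, against 2.79% and 4.39% of Ccl2-negative cells. Ccl8 showed no such pattern there: it was in 20.5% of Ccl2-positive and 19.7% of Ccl2-negative decorin-high cells of the antibody library. Cells of 1 library share their source, so these counts are a description.

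Ccl8 had the largest library difference of the 5 genes. In macrophages it was at 1032 CPM (998 to 1068) in the control library and 8361 CPM (8287 to 8435) in the antibody library, from 3389 and 49059 UMIs. The log2 ratio was 3.02 (2.97 to 3.07), and it lay between 2.98 and 3.23 over the 12 alternative settings. In monocytes Ccl8 was at 143 CPM (97.9 to 202) and 819 CPM (774 to 865), a log2 ratio of 2.49 (2.01 to 3.07). The thinned share of antibody monocytes with a Ccl8 UMI, 40.7% (35.8% to 45.8%), was near the 39.8% (35.3% to 44.4%) of T cells. Per cell, antibody monocytes held 2.79 (2.64 to 2.95) Ccl8 UMIs and T cells 0.949 (0.880 to 1.02). Fibroblasts had 106 CPM (86.7 to 129) and 290 CPM (265 to 316), a log2 ratio of 1.44 (1.14 to 1.77). After thinning, 25.2% (21.9% to 28.7%) of control and 81.1% (78.2% to 83.8%) of antibody macrophages held a Ccl8 UMI (30.7% and 91.4% unthinned). The control macrophages were uneven, with 87.0% of the Ccl8 UMIs in the top 10% of cells and up to 117 in a thinned cell, and in the antibody library that share was 48.8%.

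Outside these classes, Ccl8 was spread almost evenly per cell in the antibody library. Tumour cells held 1.05 UMIs per cell, decorin-high cells 1.19, neutrophils 1.05, T cells 0.949, NK cells 0.875 and plasmacytoid dendritic cells 0.803. Median depths ranged from 773 UMIs in neutrophils to 12991 UMIs in decorin-high cells. In the control library the same classes held between 0 and 0.073 Ccl8 UMIs per cell. T cells are not known as a source of Ccl8, and 39.8% of them in the antibody library had a UMI after thinning, against 20.9% of tumour and 20.03% of decorin-high cells. The thinned Ccl8 shares of tumour and decorin-high cells were thus below that of T cells, although their log2 ratios were 3.80 and 3.49. Thinning keeps a smaller part of a deeper cell, so these shares cannot separate background from a low level of their own. Per cell, decorin-high cells (1.15 to 1.23) lay above T cells (0.880 to 1.02), with up to 33 UMIs in a cell against 13. The tumour interval (1.01 to 1.10) overlapped that of T cells. Whether the tumour and decorin-high classes hold Ccl8 above background is not settled by these values. Set against 5 macrophage transcripts (Csf1r, Adgre1, Mrc1, Ms4a7 and Fcgr1), antibody tumour cells held 3.53 Ccl8 UMIs per UMI of these genes and antibody macrophages 2.89. The same quotient for Ccl2 was 5.37 in tumour cells, 37.0 in decorin-high cells and 0.765 in macrophages. Fibroblasts of the antibody library had more Ccl8 per cell than the classes just listed, 4.86 UMIs. Their Ccl8 quotient of 7.89 lay between those of T cells (6.45) and NK cells (8.31, from 16 UMIs of the reference genes). In the control library the quotient was 5.72 in fibroblasts and 0.75 in T cells, from 18 and 8 reference UMIs. Per cell, control fibroblasts held 1.43 (1.17 to 1.73) Ccl8 UMIs and control T cells 0.0347 (0.0127 to 0.0755).

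Ccl12 was the ligand most restricted to macrophages. It was at 5953 CPM (5870 to 6037) in control and 2730 CPM (2688 to 2773) in antibody macrophages, a log2 ratio of -1.12 (-1.15 to -1.09). Under median-of-ratios scaling the ratio was -0.92, under 2-fold. Monocytes had 1333 CPM (1186 to 1494) and 680 CPM (639 to 722), a log2 ratio of -0.97 (-1.16 to -0.78). Fibroblasts had 9.28 CPM (4.24 to 17.6) and 9.76 CPM (5.68 to 15.6), from 9 and 17 UMIs, which is 608-fold and 272-fold below macrophages. Tumour and decorin-high cells had 9.44 to 12.3 CPM, or 0.098 to 0.144 UMIs per cell, against 0.064 and 0.078 in T cells. After thinning, 2.61% and 3.03% of tumour cells and 3.40% and 2.52% of decorin-high cells had a Ccl12 UMI, not above the 3.28% and 4.62% of T cells beyond the intervals of the latter (0.400% to 11.3% and 2.88% to 6.97%). Per cell, the antibody intervals of tumour (0.113 to 0.147) and decorin-high cells (0.130 to 0.159) lay above that of T cells (0.0594 to 0.102). In the control library decorin-high cells (0.118 to 0.141) lay above T cells (0.0317 to 0.114) and tumour cells (0.0875 to 0.109) overlapped them. Whether the tumour and decorin-high classes hold Ccl12 above background is not settled by these values.

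**Figure D3:**
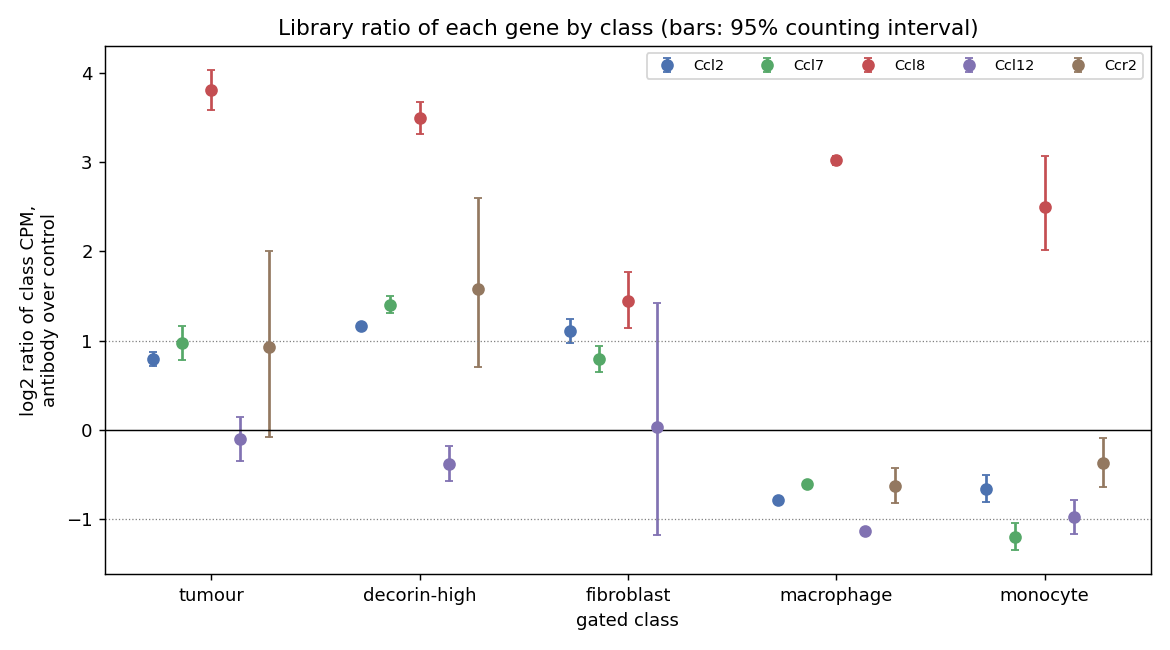
Log2 ratio of class CPM, antibody over control, for each gene in the 5 main classes; bars are exact 95% counting intervals and dotted lines mark 2-fold; Ccr2 in fibroblasts (0 and 2 UMIs) is not drawn. Ccl2 and Ccl7 lie above 0 in tumour, decorin-high and fibroblast cells and below 0 in macrophages and monocytes, while Ccl8 lies above 0 in all 5 classes.

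The ligand make-up of macrophages was thus different between the libraries while the total was similar. UMIs count molecules and carry no gene length, but the capture of each transcript may differ. A thinned macrophage held 28.8 UMIs of the 4 ligands on average (median 21) in the control library and 31.5 (median 23) in the antibody library. Ccl12 was 39.1% of these UMIs in the control library and 16.1% in the antibody library, while Ccl8 was 6.29% and 54.3%. Ccl7 was 29.1% and 16.6%, and Ccl2 25.6% and 13.1%. Ccl12 was the most abundant ligand in 263 of 654 control macrophages (40.2%) and Ccl8 in 36 (5.50%). In the antibody library Ccl8 led in 385 of 799 cells (48.2%) and Ccl12 in 127 (15.9%). All 4 ligands were found together in 18.0% of control and 46.1% of antibody macrophages. Cells holding Ccl8 were not short of Ccl12, since 87.3% of Ccl8-positive and 80.4% of Ccl8-negative control macrophages had it, and 72.7% and 60.9% in the antibody library.

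**Figure D4:**
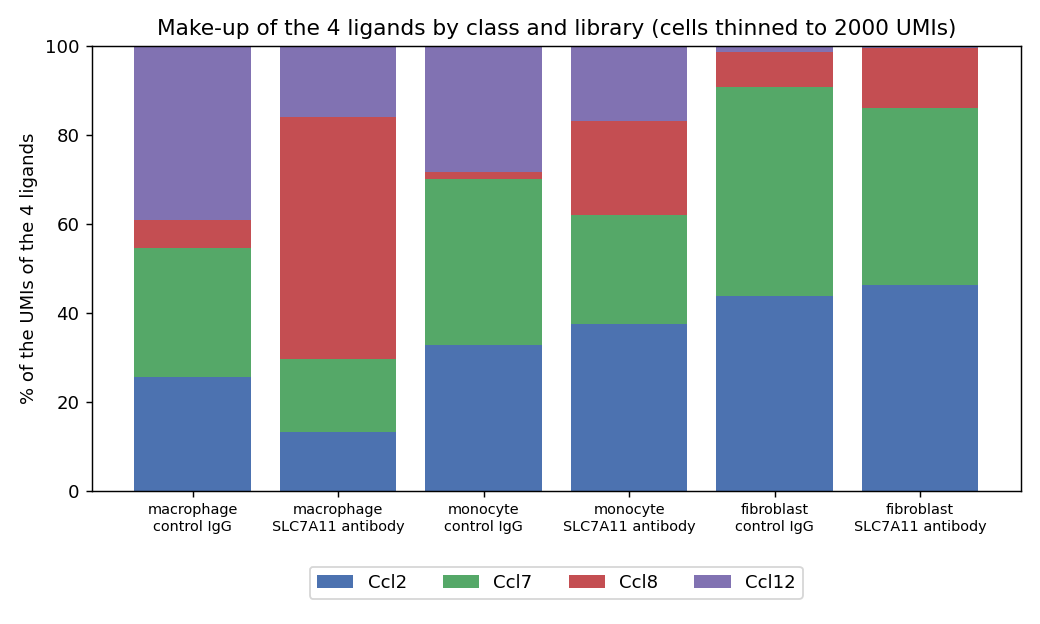
Share of each ligand among the UMIs of the 4 ligands, in macrophages, monocytes and fibroblasts of each library, after thinning to 2000 UMIs per cell. In macrophages Ccl8 takes 6.29% in the control library and 54.3% in the antibody library, while fibroblasts hold mostly Ccl2 and Ccl7 in both.

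Among classes of at least 30 cells, the receptor Ccr2 had its highest levels in monocytes and NK cells. It was at 591 CPM (494 to 700) in control and 458 CPM (425 to 493) in antibody monocytes, and at 703 CPM (536 to 905) and 432 CPM (354 to 521) in NK cells. Monocytes and NK cells had overlapping intervals in each library. Macrophages had 124 CPM (113 to 137) and 80.8 CPM (73.7 to 88.4), and T cells 117 CPM (84.1 to 159) and 63.3 CPM (53.2 to 74.8). Tumour, decorin-high and fibroblast cells had at most 1.15 CPM, and 0 Ccr2 UMIs were found in 72 control fibroblasts, which allows up to 3.09 CPM by the limit of 3 counts (exact 95% upper limit 3.80 CPM). After thinning, 66.7% (52.5% to 78.9%) of control and 54.6% (49.5% to 59.7%) of antibody monocytes had a Ccr2 UMI (68.1% and 64.9% unthinned), against 18.0% and 13.5% of macrophages and 0.102% and 0.113% of decorin-high cells.

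In CPM, Ccr2 was lower in the antibody library in each of these 4 leukocyte classes. The log2 ratio was -0.37 (-0.64 to -0.09) in monocytes, -0.62 (-0.82 to -0.43) in macrophages, -0.71 (-1.17 to -0.22) in NK cells and -0.90 (-1.40 to -0.35) in T cells. The monocyte difference did not hold in 5 alternative settings, whose intervals include 0, for example -0.10 (-0.37 to 0.18) under median-of-ratios scaling and -0.19 (-0.45 to 0.09) without doublet removal. The NK and T cell ratios were not put through the alternative settings. After thinning, 58.3% (27.7% to 84.8%) of 12 control and 54.5% (36.4% to 71.9%) of 33 antibody NK cells had a Ccr2 UMI. Over the whole library, however, Ccr2 was higher with the antibody, at 15.9 against 8.08 CPM (log2 ratio 0.98, 0.86 to 1.10). The class sizes moved with this: monocytes were 4.13% of antibody and 0.763% of control cells, NK cells 1.39% and 0.316%, and T cells 6.67% and 1.40%. Monocytes held 37.2% of all Ccr2 UMIs in the antibody and 15.8% in the control library, and macrophages 25.1% and 48.8%. Recovery of cells from a tissue was not measured, so these shares describe the suspensions.

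Ccr2 was highest at the monocyte end and Ccl8 and Ccl12 at the macrophage end of an axis read from C1q transcripts in macrophage and monocyte cells. Control cells without C1q had 676 CPM (502 to 891) of Ccr2 and those with 50 or more C1q UMIs 175 CPM, and antibody cells had 483 CPM and 74.4 CPM. Ly6c2, a marker of inflammatory monocytes, went from 581 to 9.38 CPM and from 678 to 5.95 CPM over the same steps. Ccl8 went from 122 to 1463 CPM in the control and from 672 to 11949 CPM in the antibody library. Ccl12 went from 2068 to 6609 CPM and from 617 to 3324 CPM. Ccl2 and Ccl7 differed less along the axis, Ccl2 from 1932 to 3722 CPM and from 1371 to 2688 CPM. At each of the 5 steps Ccl8 was higher and Ccl2, Ccl7 and Ccl12 were lower in the antibody library. At 1 to 4 C1q UMIs the control and antibody intervals overlapped for Ccl2 (920 to 1947 and 830 to 1053 CPM). They also overlapped there for Ccl7 (627 to 1514 and 638 to 835 CPM). Elsewhere the intervals did not overlap, so these library differences were otherwise seen at matched C1q level. The control library had 37, 11 and 37 cells in the lowest 3 steps. C1q and Ly6c2 helped define the classes, so their own course is not a result.

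**Figure D5:**
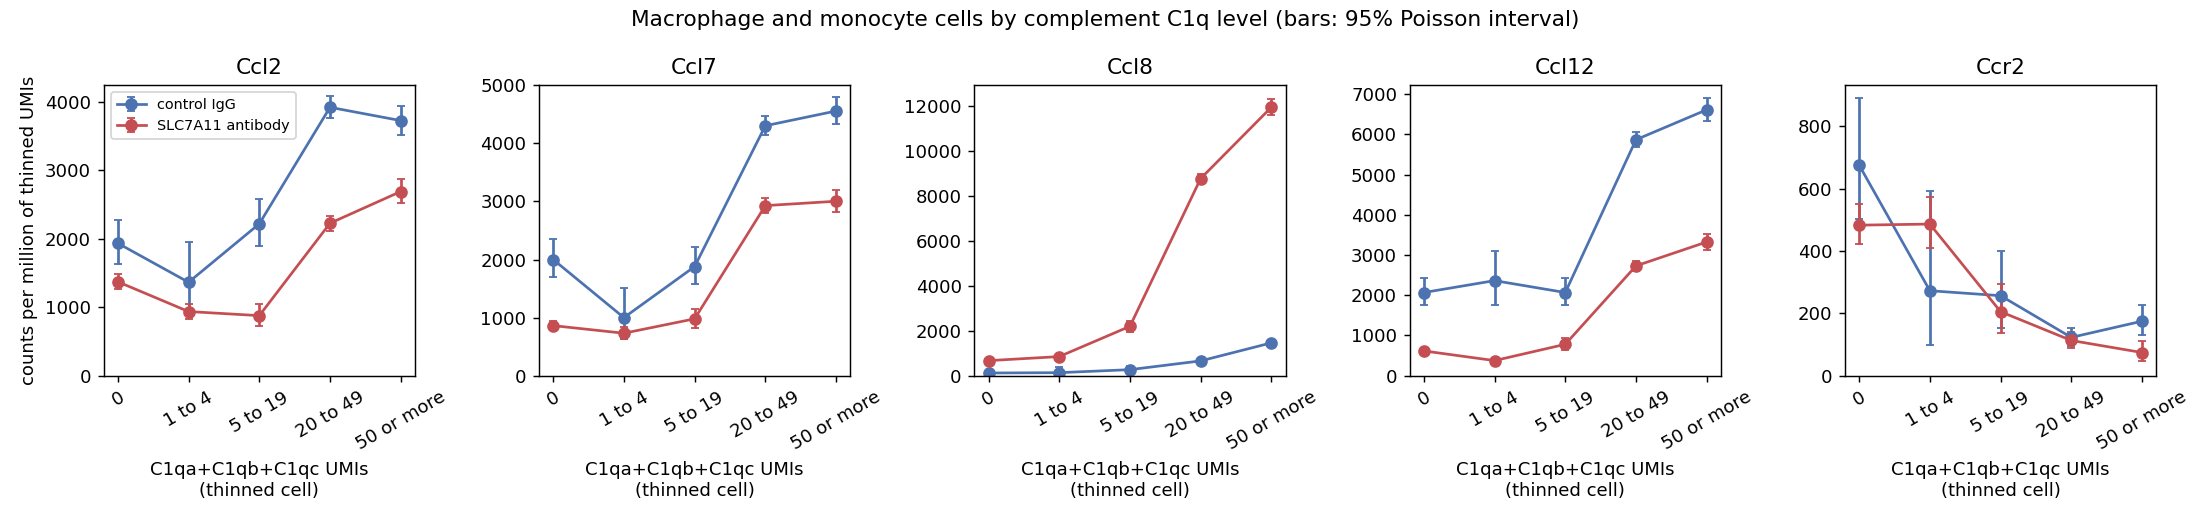
The 5 genes (CPM of thinned UMIs) in macrophage and monocyte cells grouped by the C1q UMIs of the thinned cell; bars are 95% Poisson intervals, each line is 1 library and each axis starts at 0. Ccr2 is highest in cells with under 5 C1q UMIs, and Ccl8 is highest in cells with 50 or more C1q UMIs in both libraries.

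Mast cells were few but rich in 2 of the ligands. The 7 control and 22 antibody cells with mast cell protease and receptor transcripts had 9051 CPM (7209 to 11220) and 5497 CPM (4859 to 6196) of Ccl7, and 4907 CPM (3579 to 6566) and 3323 CPM (2831 to 3876) of Ccl2. No Ccl12 or Ccr2 UMI was found in them in either library, with exact 95% upper limits of 402 CPM (control) and 75.7 CPM (antibody). Ccl7 was uneven among them: 7 of 7 control but 14 of 22 antibody mast cells had a Ccl7 UMI without thinning. After thinning, which kept 0 control and 8 antibody mast cells, 3 of the 8 had Ccl7. The level was then 2562 CPM, and 1 cell held 82.9% of the UMIs. Together the mast cells held 0.473% and 0.951% of all Ccl7 UMIs.

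The members were counted at a fixed size, a class difference of at least 2-fold with 20 counts over both libraries. Of the genes tested in decorin-high cells, 10.8% were that much higher in the antibody library and 4.21% lower, and 4 of the 5 members were higher (Ccl2, Ccl7, Ccl8 and Ccr2, the last from 14 and 42 UMIs) and 0 lower. Of these calls, Ccl8 was not settled to be above background in this class. Ccr2 had a log2 ratio of 0.20 (-2.63 to 2.71) after thinning, from 4 and 3 UMIs. In fibroblasts 9.33% of genes were higher and 5.57% lower, and of the 4 members tested Ccl2 and Ccl8 were higher. In tumour cells 10.7% were higher and 4.28% lower, and 1 member, Ccl8, was higher, again not settled to be above background. In macrophages 8.57% were higher and 5.16% lower, with Ccl8 higher and Ccl12 lower. In monocytes 12.3% were higher and 9% lower, with Ccl8 higher and Ccl7 lower. The thinned Ccl8 share of antibody monocytes was near that of T cells. Under median-of-ratios scaling the log2 ratios of Ccl7 (1.15) and Ccr2 (1.11, from 15 and 21 UMIs) in tumour cells and of Ccl7 (1.05) in fibroblasts passed 2-fold. Under the same scaling Ccl12 in macrophages and Ccl7 in monocytes were under 2-fold, with the same direction. Among the genes below, so were the macrophage values of Cx3cr1 and C5ar1 and the monocyte values of Ccl3, Ifngr1, Rela and Pik3cg. The monocyte value of Cx3cr1 stayed past 2-fold. The median log2 ratio over all genes tested lay between -0.19 and -0.15 in the 5 classes.

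Genes of the pathway were followed as 6 lists. Among 12 NF-kB, STAT and AP-1 regulators, Nfkbia, Irf1 and Jun were at least 2-fold higher in the antibody library in all 5 classes. Nfkbia encodes an inhibitor of NF-kB that is itself induced by it, and Irf1 an interferon-induced transcription factor. In decorin-high cells Nfkbia was at 445 and 2412 CPM and Irf1 at 47.6 and 307 CPM. In macrophages Nfkbia was at 245 and 1107 CPM and Irf1 at 61.5 and 224 CPM. The list's count was 5 higher and 0 lower of 12 in tumour, decorin-high and fibroblast cells, 4 and 0 in macrophages and 3 and 1 in monocytes, where Rela was lower. Its median log2 ratio lay between 0.36 and 0.62.

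Among 16 inducing cytokines and their receptors, Ifngr2, a chain of the interferon gamma receptor, was at least 2-fold higher in all 5 classes, for example 32.0 and 108 CPM in macrophages. Ifngr1, the other chain, was lower in monocytes, at 371 and 183 CPM, where the list had 2 genes higher and 1 lower of 11. The Ifngr1 log2 ratio was -0.38 in macrophages, -0.27 in tumour cells, -0.12 in decorin-high cells and 0.70 in fibroblasts. Il1b, an inflammatory cytokine, was lower in macrophages, at 3152 and 1335 CPM. That list had 1 gene higher and 1 lower of 12 with enough counts in macrophages, and 4 higher and 0 lower of 13 in decorin-high cells. Beside Ifngr2, these were low there: Ifng (0.073 and 0.79 CPM), Tnf (0.44 and 1.01 CPM) and Osm (0.83 and 1.85 CPM). In the same class T cell markers were at 1.29 and 9.36 CPM and C1q at 32.2 and 74.8 CPM. Whether these cytokine UMIs come from leukocyte RNA was not tested. Among the other CCL ligands, macrophages had more Ccl5 (28.9 and 204 CPM) and less Ccl3 (932 and 339 CPM) in the antibody library, and Ccl22 was lower too, which makes 1 higher and 2 lower of 8. Monocytes had less Ccl24 (398 and 63.9 CPM), Ccl9 (855 and 342 CPM) and Ccl3, and more Ccl5, of 6 tested. T cell markers were at 2.74 and 16.7 CPM in macrophages and at 13.4 and 23.5 CPM in monocytes. Whether the Ccl5 UMIs of these 2 classes come from T cell RNA was not tested. In decorin-high cells Ccl3 and Ccl4 were higher of 9 tested, both under 15 CPM.

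Of the other chemokine receptors and scavengers, Ccr7 and Cx3cr1 were lower in macrophages of 6 tested, Cx3cr1 with 267 and 131 CPM, and Cx3cr1 was lower in monocytes. The same list had 5 genes higher and 0 lower of 8 in decorin-high cells, among them Ccr7, and 4 higher and 0 lower of 8 in tumour cells, while Ccrl2 was higher in fibroblasts. In tumour and decorin-high cells these were low levels, for example Ccrl2 at 1.89 and 4.67 CPM and Ccr7 at 0.24 and 1.04 CPM in decorin-high cells. Of the other attractants and growth factors, Cxcl12 was higher in fibroblasts, at 151 and 503 CPM, as 1 of 5 tested. It was also called higher in tumour cells (0.26 and 1.24 CPM) and in decorin-high cells (0.15 and 0.77 CPM, with Csf2 at 1.07 and 2.15 CPM). The complement receptor C5ar1 was lower in macrophages, at 410 and 199 CPM, as 1 of 4. Of 6 CCR2 signalling genes, none was past 2-fold in 4 of the classes, and Pik3cg was at the 2-fold limit in monocytes, at 40.3 and 20.9 CPM, from 9 and 32 UMIs with a log2 interval of -2.05 to 0.30 that includes 0.

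The genes whose levels followed each member most closely were found over 17 points, each a class of at least 30 cells in 1 library, among 14323 genes. The points share libraries and depth, so the Pearson r of log2(CPM + 1) is a description. For Ccl12 they were Pf4 (0.96), Nxpe5, Lyz2, Folr2 and Gatm, and for Ccl7 Plau (0.94), Dock4, Dpp7, Csf1r and Pid1. For Ccl8 they were Apoe (0.90), Cxcl9, Ckb, H2-Ab1 and Clec12a. For Ccl2 the closest included Cfb (0.91), Gm17268, which overlaps it, and Egr2. For Ccr2 they included Epsti1 (0.95), Malt1, Rgs1 and Stxbp2. Among the members themselves, Ccl2 and Ccl7 were the most alike (0.89), and Ccr2 was at -0.07 with Ccl2 and 0.08 with Ccl7.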

How the data were processed

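Per the labels' protocols, single-cell libraries (10x Genomics, 3′ ends) were made from enzyme-digested tumours, 1 per group. The deposited tables hold whole-number UMI counts per gene and barcode; Cell Ranger 7.2.0, build mm10 and Seurat are named per the submitters' processing notes. The tables had 129044329 control and 143658800 antibody UMIs. Cells needed 200 genes, 500 UMIs and a mitochondrial share under 20% (13863 and 12061 passed), and 1537 and 1164 cells with the highest Scrublet scores (scanpy 1.11.5) were removed. No correction for free RNA was made.

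Members and lists were chosen with earlier results of these data known, and gate thresholds were set after seeing marker and depth distributions. Cells in more than 1 class numbered 4 and 15. Counts were summed per class and library. Levels have exact Poisson, shares Clopper-Pearson and ratios conditional binomial intervals, with a prior of 0.5 counts in the log2 ratio and a floor of 3 counts for zeros. Code was tested on simulated data. Genes named are the members, list genes at least 2-fold different with 20 counts, and for each member the 5 genes of highest Pearson r (at least 100 counts), some of which are not reported here. Promoters came from RefSeq. Tools were scipy 1.17.1 and pandas 2.3.3 in Python 3.11.15.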

Additional observations from a re-analysis of the deposited data

How the results depend on the processing

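No paired analysis was possible because each group had 1 library. The alternative settings covered the 5 main classes only. In these, no log2 ratio of a member changed direction where its interval left out 0. Where the Ccl2 ratio moved beyond its counting interval, it was 1.00 (decorin per 10000 UMIs), 0.89 (thinned) and 0.97 (median of ratios) in tumour cells. In decorin-high cells it was 1.23 (no doublet removal), 1.04 (minimums doubled), 1.23 (other maximums halved), 1.37 (decorin per 10000 UMIs), 1.12 (thinned), 1.12 (other totals) and 1.34 (median of ratios). In fibroblasts it was 1.52 (no doublet removal), 0.53 (minimums doubled), 1.41 (other maximums halved), 0.95 (thinned) and 1.37 (median of ratios). In macrophages, no doublet removal gave -0.71 for Ccl2, -0.49 for Ccl7, 3.14 for Ccl8 and -1.05 for Ccl12. Thinning gave -0.84, -0.68, 3.23 and -1.15, and median of ratios -0.58, -0.39, 3.23 and -0.92, in the same order. Means over scaled cells gave -0.73 for Ccl2, 3.19 for Ccl8 and -1.07 for Ccl12, totals without mitochondrial, ribosomal and haemoglobin genes -0.64 for Ccl7 and -1.16 for Ccl12, halved maximums 3.09 for Ccl8, and requiring Ptprc -1.19 for Ccl12. The Ccr2 ratio in monocytes ranged from -0.39 to -0.10, and its interval included 0 in 5 settings (no doublet removal, minimums doubled, other maximums halved, thinned and median of ratios). Of the other member ratios, 172 values stayed within their counting interval and 30 moved beyond it. The cause of these shifts was not tested. The settings on decorin per 10000 UMIs, Ptprc, Y-linked transcripts and shared barcodes were chosen after seeing the data. Depth limits Ccr2 outside leukocytes and all values in control monocytes and fibroblasts.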

Other observations

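Ccr2 was also seen in rarer leukocytes. Plasmacytoid dendritic cells had 332 CPM (133 to 684) in the control library and 111 CPM (71.6 to 163) in the antibody library, from 11 and 71 cells. Type 1 conventional dendritic cells, which cross-present antigen, had 208 CPM (111 to 356) and 57.8 CPM (30.8 to 98.9), from 13 UMIs in each library and 13 and 29 cells. Neutrophils had 1 Ccr2 UMI in 135 control cells and 22 in 202 antibody cells. In endothelial cells (24 and 18 cells) Ccl2 was at 91.4 and 130 CPM, with intervals that include the tumour cell level of the same library.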
